A study of Mus musculus with 24 samples.

Results

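The messenger RNAs described here encode 3 D-type cyclins (Ccnd1, Ccnd2, Ccnd3), 2 G-type cyclins (Ccng1, Ccng2) and 3 CDK inhibitors of the Cip/Kip family: Cdkn1a (p21), Cdkn1b (p27) and Cdkn1c (p57). All probe sets whose platform annotation gives exactly 1 of these symbols were taken, which gave 11 probe sets for 8 genes. The table holds 10833 probe sets with a single gene symbol, standing for 8251 genes. Ccnd1, Cdkn1a and Cdkn1b have 2 probe sets each, and each is named below by its probe set. The rule takes genes by symbol and uses no measured value, but the genes were picked with earlier results of these data known.

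Total RNA of mouse fibroblast lines was hybridised to 24 oligonucleotide arrays, 2 for each of 12 groups. On 12 arrays, called the tunicamycin arrays, wild-type (WT), ATF4-/- and PERK-/- cells were untreated or received 2 ug/ml tunicamycin, a drug that blocks N-glycosylation and so unfolds proteins in the endoplasmic reticulum. The labels give 6 h for WT and ATF4-/- cells and no time for PERK-/- cells. On the other 12, called the Fv2E-PERK arrays, the cells expressed Fv2E-PERK, a PERK kinase chimera that the small molecule AP20187 dimerises and activates. These cells were untreated or received AP20187, at a dose labelled 2 nm, for 4 h or 8 h. The SS line carries wild-type eIF2alpha in a PERK-/- background, chosen because clones with high transgene levels had not been obtained from wild-type cells. The AA line carries mutant eIF2alpha, and the labels do not state its PERK background. Each genotype is one cell line or clone, so a difference between lines cannot be told apart from a difference between clones. Nothing in the labels states that a group's 2 arrays hold RNA of separate cultures. The p-values therefore rest on the spread between arrays, which may be technical.

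D-type cyclins bind CDK4 and CDK6 and carry mitogen signals to the retinoblastoma protein early in G1, while p21, p27 and p57 bind cyclin-CDK complexes and can hold cells in G1. Cyclins G1 and G2 are atypical: Ccng1 is a p53 target, and Ccng2 is induced in several settings of growth arrest. PERK phosphorylates eIF2alpha on unfolded-protein stress, which lowers general translation, including that of cyclin D1, and raises translation of the transcription factor ATF4.

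Each value is a deposited linear ratio, in which most probe sets have a median near 1 over the 24 arrays, so levels of different genes are not compared. Changes are log2 differences of (ratio + 0.247) with standard errors (SE) from limma, and a change was called at a Benjamini-Hochberg adjusted p under 0.05 over all probe sets tested. A probe set was tested in a set of 12 arrays only where none of its 12 values lay at the table's minimum of 0.01. That admitted 11 of 11 member probe sets on the Fv2E-PERK arrays. It admitted 8 of 11 on the tunicamycin arrays, where Ccnd2, Cdkn1a 98067_at and Cdkn1b 100278_at had values at the minimum.

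The ATF4-/- arrays had Atf4 ratios of 0.133 to 0.17, against 0.745 to 1.64 in WT. Eif2ak3, which encodes PERK, was 0.241 to 0.987 on the PERK-/- arrays and 0.0222 to 2.26 on the WT arrays, which overlap, and the probe set's place relative to the deletion is not known. Between 22.6% and 25.6% of values lay at the minimum on each tunicamycin array, against 0.00805% to 0.105% on each Fv2E-PERK array. Replicate correlations were 0.711 to 0.786 for the tunicamycin groups and 0.69 to 0.854 for the Fv2E-PERK groups. Ddit3, the stress-induced gene for CHOP, rose from 0.323 and 0.705 to 8.92 and 9.0 in WT and from 0.737 and 0.823 to 3.1 and 3.83 at 4 h in SS, and was 0.816 to 1.3 on all AA arrays. Of 13 fibroblast marker genes, 0 were at the minimum on all tunicamycin arrays and 2 on at least 1 of them. Of 6 epithelial markers these counts were 1 and 5, and of 6 endothelial markers also 1 and 5. On the Fv2E-PERK arrays 0 fibroblast, epithelial, leukocyte or endothelial markers were at the minimum on any array, so the minimum did not separate cell types there. The keratin gene Krt19, an epithelial marker singled out after its values were seen, was 62.6 to 114 on the SS arrays, 2.0 to 10.3 on the AA arrays and at the minimum on all 12 tunicamycin arrays.

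Promoter windows are shown for Ccng2 and for Cdkn1a, the G cyclin and the inhibitor on which the results turn. They are the 250 bases upstream of an annotated start, from RefSeq on GRCm38.p6, 5′ to 3′ on the gene's strand, with motif matches in capitals. The Ccng2 window is chr5:93267323-93267572 (+ strand), and the Cdkn1a window is that of the upstream one of 2 listed starts, chr17:29090729-29090978 (+ strand).
Ccng2: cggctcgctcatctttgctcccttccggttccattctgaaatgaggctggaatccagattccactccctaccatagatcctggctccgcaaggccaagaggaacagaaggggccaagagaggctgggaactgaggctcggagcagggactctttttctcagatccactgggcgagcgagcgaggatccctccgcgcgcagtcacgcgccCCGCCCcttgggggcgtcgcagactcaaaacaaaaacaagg
Cdkn1a: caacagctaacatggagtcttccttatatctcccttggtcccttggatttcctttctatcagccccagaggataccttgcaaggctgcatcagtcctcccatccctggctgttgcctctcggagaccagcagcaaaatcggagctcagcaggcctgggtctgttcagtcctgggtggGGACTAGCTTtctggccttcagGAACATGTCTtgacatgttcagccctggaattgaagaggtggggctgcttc
The capitals in Ccng2 are a GGGCGG box read on the opposite strand, and those in Cdkn1a are 2 matches to the p53 half-site consensus, which each match on both strands. Both strands were searched for TGATGNAA, a CHOP-ATF4 type element (held by 3.45% of 32851 mouse promoter windows of this length), TGACGTCA (1.55%), the FoxO-type GTAAACA (3.17%), CCAAT (33.8%), GGGCGG (32.7%), TATAAA (12.4%) and the p53 half-site (7.13%). Windows were found for Ccnd3, Ccng1, Ccng2, Cdkn1a and Cdkn1b, and Ccnd1, Ccnd2 and Cdkn1c were not matched. The letters TGATGNAA, TGACGTCA and TATAAA were in none of these windows. Ccng1 held 1 p53 half-site and 3 CCAAT boxes, and the upstream start of Ccnd3 held 1 GTAAACA. The other listed start of Cdkn1a, whose window is not shown, held 2 GGGCGG boxes and 0 p53 half-sites. Matches did not overlap each other, and a match is a description of letters only.

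In bulk RNA, fewer cells of a kind and less RNA per cell cannot be told apart. The first comparison asked how the genes moved when AP20187 switched on Fv2E-PERK in cells with wild-type eIF2alpha. In the SS line Ccng2 rose at 4 h and 8 h, Ccnd2 rose at 8 h, Cdkn1a rose at 8 h at 1 of its 2 probe sets, and Ccnd1 fell at both times at 1 of its 2 probe sets. At 4 h 2 of 11 member probe sets were called, where 4.76% of all 12384 probe sets tested were called, and at 8 h 4 of 11, where 7.56% were. The split was 1 higher and 1 lower at 4 h (2.99% and 1.77% of all probe sets) and 3 higher and 1 lower at 8 h (4.93% and 2.63%). Between 4 h and 8 h only Ccnd2 was called among the 11, beside 0.509% of all probe sets. The median change over the 11 was 0.05 at 4 h and -0.20 at 8 h, against -0.03 and 0.04 over all probe sets. These 7 calls (5 higher, 2 lower) became 0 when only the groups compared entered the fit. They became 3 without SS untreated replicate 1, 4 without replicate 2, 2 without SS 4 h replicate 1, 3 without replicate 2, 3 without SS 8 h replicate 2, and 3 without either AA 4 h array.

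**Figure D1:**
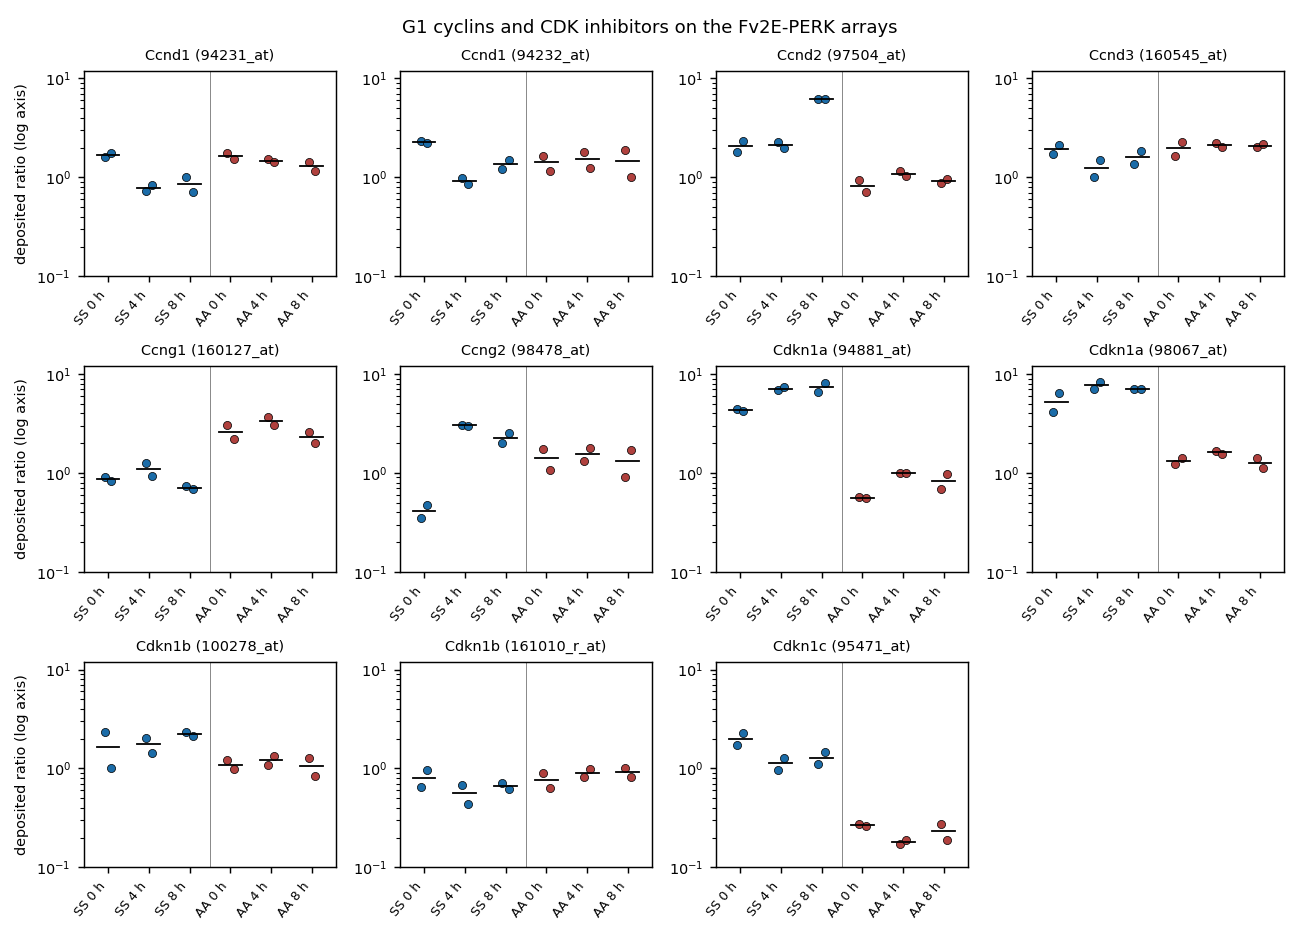
Deposited ratios (log axis) of the 11 member probe sets on the 12 Fv2E-PERK arrays; points are arrays, horizontal bars are means of 2 arrays, blue is SS and red is AA. Ccng2 rises from 0.473 or less to about 3 in SS by 4 h, Ccnd2 reaches 6.25 only at 8 h in SS, and both Cdkn1a probe sets lie higher in SS than in AA at every time.

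Cyclin D1, the D-type cyclin most tied to mitogen signalling, fell in SS. Ccnd1 94231_at was 1.59 and 1.77 untreated, 0.736 and 0.83 after 4 h, and 1.01 and 0.71 after 8 h. Both treated pairs lay below both untreated arrays. The change was -0.90 ± 0.18 (SE) at 4 h (limma adjusted p = 0.0289) and -0.81 ± 0.18 at 8 h (limma adjusted p = 0.0309). Neither call was firm against single arrays. The 4 h call was lost without any 1 of the SS untreated, SS 4 h or AA 4 h arrays (limma adjusted p from 0.0513 to 0.181). The 8 h call was lost without any 1 of the SS untreated, SS 4 h or AA 4 h arrays, or SS 8 h replicate 2 (limma adjusted p from 0.0542 to 0.187). The other probe set, Ccnd1 94232_at, was 2.36 and 2.23 untreated, 0.986 and 0.855 after 4 h, and 1.23 and 1.49 after 8 h. Its treated arrays also lay below its untreated ones, but its changes of -1.12 ± 0.28 and -0.67 ± 0.28 were not called (limma adjusted p = 0.0596 and 0.204). The 4 h change was called with all 24 arrays in 1 fit (limma adjusted p = 0.017), with a replicate block (0.0468), and without AA 8 h replicate 1 (0.033) or replicate 2 (0.0327). Over the 12 Fv2E-PERK arrays the probe sets correlated at r = 0.661, a description over arrays that share lines and treatments.

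Cyclin D2, a D-type cyclin with the same CDK partners, moved late. Ccnd2 was 1.8 and 2.33 in untreated SS, 2.28 and 2.0 at 4 h, and 6.25 and 6.22 at 8 h. The 4 h arrays lay within the untreated range, and both 8 h arrays lay well above it. The rise at 8 h was 1.5 ± 0.18 (limma adjusted p = 0.00311), a 3.02-fold ratio of means (6.24 ± 0.0176 against 2.06 ± 0.376, SD, n = 2). It was called without any 1 array, and lost only when the fit held SS untreated and SS 8 h alone (limma adjusted p = 0.0923). The 8 h minus 4 h difference was 1.44 ± 0.18 (limma adjusted p = 0.0291). Its call was lost with a replicate block (limma adjusted p = 0.0523) and with only the groups compared in the fit (0.164). That call was lost without either SS 4 h, SS 8 h, AA untreated or AA 4 h array (limma adjusted p from 0.0575 to 0.219). With the cyclin D1 values, the 2 D cyclins stood on opposite sides of their untreated levels at 8 h in SS. Ccnd3 was 1.73 and 2.15 untreated, 0.998 and 1.49 after 4 h, and 1.36 and 1.85 after 8 h, and its changes of -0.57 ± 0.23 and -0.24 ± 0.23 were not called (limma adjusted p = 0.214 and 0.611).

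Cyclin G2 had the largest change among the 11 probe sets at both times. Ccng2 was 0.347 and 0.473 in untreated SS, 3.06 and 3.0 at 4 h, and 2.01 and 2.52 at 8 h. All 4 treated arrays lay far above both untreated ones. The rise was 2.32 ± 0.29 at 4 h (7.38-fold ratio of means, limma adjusted p = 0.006) and 1.93 ± 0.29 at 8 h (5.53-fold, limma adjusted p = 0.00862). The 4 h call was lost without SS 4 h replicate 1 (change 2.31, limma adjusted p = 0.0585). The 8 h call was lost without SS untreated replicate 1 (1.80, limma adjusted p = 0.0558) or SS 8 h replicate 2 (1.79, limma adjusted p = 0.072). The 8 h level was below the 4 h level on both arrays, and that difference of -0.39 ± 0.29 was not called (limma adjusted p = 0.614). Ccng1, the other G cyclin, was 0.914 and 0.824 untreated, 1.27 and 0.925 after 4 h, and 0.74 and 0.682 after 8 h. Its changes of 0.26 ± 0.21 and -0.22 ± 0.21 were not called (limma adjusted p = 0.57 and 0.626).

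Among the inhibitors, p21 was already high in untreated SS and rose modestly. Cdkn1a 94881_at was 4.45 and 4.2 untreated, 6.93 and 7.33 after 4 h, and 6.64 and 8.19 after 8 h. The treated arrays all exceeded the untreated ones. The change was 0.69 ± 0.18 at 4 h (1.65-fold ratio of means, limma adjusted p = 0.0721) and 0.74 ± 0.18 at 8 h (1.72-fold, limma adjusted p = 0.0453). The 4 h change passed with the larger pseudocount (limma adjusted p = 0.0497), with arrays scaled to their medians (0.0487) and without AA 8 h replicate 2 (0.0476). The 8 h call was weak: leaving out any SS array, AA untreated array or AA 4 h array lost it (limma adjusted p from 0.0752 to 0.235), as did 6 of 10 processing alternatives. Cdkn1a 98067_at was 4.15 and 6.38 untreated, 7.03 and 8.31 after 4 h, and 7.06 and 7.12 after 8 h. Its treated arrays also lay above the untreated ones, with changes of 0.55 ± 0.23 and 0.44 ± 0.23 that were not called (limma adjusted p = 0.233 and 0.315).

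p57 and p27 gave no called change with AP20187. Cdkn1c was 1.71 and 2.27 in untreated SS, 0.968 and 1.29 at 4 h, and 1.11 and 1.47 at 8 h. All treated arrays lay below the untreated ones, and the changes of -0.70 ± 0.21 and -0.54 ± 0.21 missed the threshold (limma adjusted p = 0.0969 and 0.162). The Cdkn1b probe sets did not move together, with r = -0.423 over the 12 arrays. Cdkn1b 100278_at was 1.02 to 2.32 and Cdkn1b 161010_r_at 0.434 to 0.966 on the SS arrays, and treated and untreated arrays overlapped at both. Their changes ran from -0.38 to 0.46 with SE of 0.33 and 0.23, with limma adjusted p from 0.424 to 0.878.

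**Figure D2:**
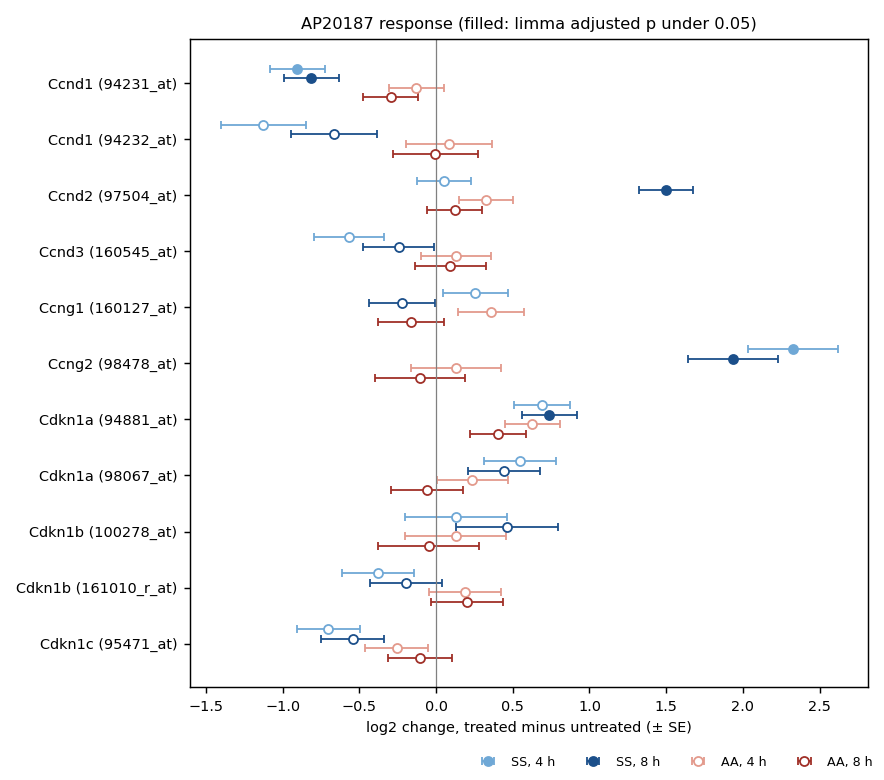
Log2 change from untreated cells (± SE, limma) of each member probe set after 4 h and 8 h of AP20187 in SS (blue) and AA (red); filled points have a limma adjusted p under 0.05. The SS points of Ccng2 lie at 1.93 and 2.32 and that of Ccnd2 at 8 h lies at 1.5, and no AA point is filled.

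The second comparison asked whether the same drug moved the genes where eIF2alpha was mutant. In AA, 0 of 11 member probe sets were called at 4 h and 0 of 11 at 8 h by limma, where 0.0% of all probe sets were called at either time. At an unadjusted p under 0.05, 1 of 11 was found at 4 h, beside 3.88% of all probe sets, and 0 of 11 at 8 h, beside 6.83%. The 1 probe set at 4 h was Cdkn1a 94881_at. It was 0.567 and 0.552 untreated, 1.01 and 0.994 after 4 h, and 0.681 and 0.979 after 8 h, so that every treated array lay above both untreated ones. The changes were 0.63 ± 0.18 at 4 h (limma adjusted p = 0.972) and 0.40 ± 0.18 at 8 h (limma adjusted p = 0.749), where those in SS were 0.69 and 0.74. Cdkn1a 98067_at was 1.22 and 1.43 untreated, 1.65 and 1.57 after 4 h, and 1.41 and 1.13 after 8 h, and its 8 h arrays overlapped the untreated ones.

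The cyclins that moved in SS lay as follows in AA. Ccng2 was 1.75 and 1.08 untreated, 1.32 and 1.77 after 4 h, and 0.92 and 1.72 after 8 h, with overlapping arrays and changes of 0.13 ± 0.29 and -0.10 ± 0.29. Ccnd2 was 0.951 and 0.705 untreated, 1.15 and 1.03 after 4 h, and 0.869 and 0.962 after 8 h, with changes of 0.33 ± 0.18 and 0.12 ± 0.18. Ccnd1 94231_at was 1.77 and 1.52 untreated, 1.53 and 1.43 after 4 h, and 1.44 and 1.16 after 8 h, with changes of -0.13 ± 0.18 and -0.29 ± 0.18. Ccnd1 94232_at was 1.66 and 1.17 untreated, 1.81 and 1.24 after 4 h, and 1.89 and 1.01 after 8 h. Its arrays overlapped, with changes of 0.086 ± 0.28 and -0.004 ± 0.28. None of these was called (limma adjusted p from 0.782 to 1.0).

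The difference between the responses was itself tested. At 8 h the AA response minus the SS response was -2.04 ± 0.41 for Ccng2 (limma adjusted p = 0.0491) and -1.38 ± 0.25 for Ccnd2 (limma adjusted p = 0.0362), so that 2 of 11 probe sets were called where 2.08% of all were. Both calls sat near the threshold. With a replicate block both were lost (limma adjusted p = 0.0599 for Ccng2 and 0.0551 for Ccnd2). In all, Ccng2 lost its call in 6 of 10 processing alternatives and Ccnd2 in 3 of 9. Ccnd2 lost its call without any 1 of the 12 arrays (limma adjusted p from 0.0503 to 0.135), and Ccng2 without any 1 of 11 arrays, all but AA 8 h replicate 2 (limma adjusted p from 0.0561 to 0.168). At 4 h 0 of 11 were called by limma, beside 0.484% of all probe sets, and 3 of 11 had an unadjusted p under 0.05, beside 12.8% of all. Ccng2 differed by -2.20 ± 0.41 at 4 h (limma adjusted p = 0.0702). For Ccnd1 the differences at 4 h and 8 h were 0.77 ± 0.25 and 0.52 ± 0.25 at 94231_at (limma adjusted p = 0.251 and 0.308). At 94232_at they were 1.211 ± 0.395 and 0.662 ± 0.395 (limma adjusted p = 0.25 and 0.406). The differences of Cdkn1a 98067_at were -0.31 ± 0.33 and -0.50 ± 0.33 (limma adjusted p = 0.763 and 0.449). Those of Cdkn1a 94881_at were -0.06 ± 0.26 and -0.34 ± 0.26 (limma adjusted p = 0.952 and 0.522).

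The SS and AA lines also differed before any drug, and more of the 11 probe sets were called there than in any response. In untreated cells both Cdkn1a probe sets, Cdkn1c and Ccnd2 were lower in AA, and Ccng1 and Ccng2 were higher in AA. These were 6 of 11 (4 lower, 2 higher), where 12.5% of all probe sets were called (6.82% lower, 5.73% higher). The median difference over the 11 was -0.43, against 0.08 over all probe sets.

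Cdkn1a 94881_at, for p21, had the largest difference of the 11 probe sets, ahead of Cdkn1c, which exceeded the other p21 probe set. The untreated values given above put Cdkn1a 94881_at at 4.32 in SS and 0.56 in AA on average, 7.72-fold higher in SS, with no overlap on any of the 12 arrays. The difference was -2.50 ± 0.18 (limma adjusted p = 0.000181), and that of Cdkn1a 98067_at was -1.78 ± 0.23 (3.96-fold higher in SS, limma adjusted p = 0.00219). For p57, Cdkn1c was 1.71 and 2.27 in untreated SS against 0.272 and 0.26 in untreated AA, and 0.174 to 0.277 on the treated AA arrays. The difference was -2.11 ± 0.21 (7.48-fold higher in SS, limma adjusted p = 0.000568). The calls of Cdkn1a 94881_at and Cdkn1c held in 10 of 10 processing alternatives and without any 1 of the 12 arrays.

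Among the cyclins, Ccnd2 differed by -1.10 ± 0.18 (limma adjusted p = 0.00563), and was not called without AA untreated replicate 2 (-0.94, limma adjusted p = 0.0507). Ccng1 was 3.04 and 2.18 in untreated AA against 0.914 and 0.824 in untreated SS, a difference of 1.34 ± 0.21 (3.0-fold, limma adjusted p = 0.00552). It stayed higher on all AA arrays (1.99 to 3.71) than on any SS array (0.682 to 1.27). Ccng2 differed by 1.32 ± 0.29 (3.45-fold, limma adjusted p = 0.023) in untreated cells, so that AA cells stood between untreated and AP20187-treated SS cells. That call was lost without SS untreated replicate 1 (1.18, limma adjusted p = 0.105) or replicate 2 (1.46, 0.0652), or AA untreated replicate 1 (1.02, 0.119). Ccnd1, Ccnd3 and Cdkn1b were not called, with differences from -0.63 to 0.01. The lowest was that of Ccnd1 94232_at (limma adjusted p = 0.188). It was 2.36 and 2.23 in untreated SS and 1.66 and 1.17 in untreated AA, without overlap. Krt19, given above, moved with these line differences, and it made up nearly all of the summed epithelial markers on the SS arrays (67.0 to 120, against 9.81 to 17.6 on AA arrays). The median of the 6 markers was 0.22 higher in AA. By limma 1 of 6 epithelial markers, Krt18, was called, and it was higher in AA. The part of cell identity in the line differences was not tested.

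**Figure D3:**
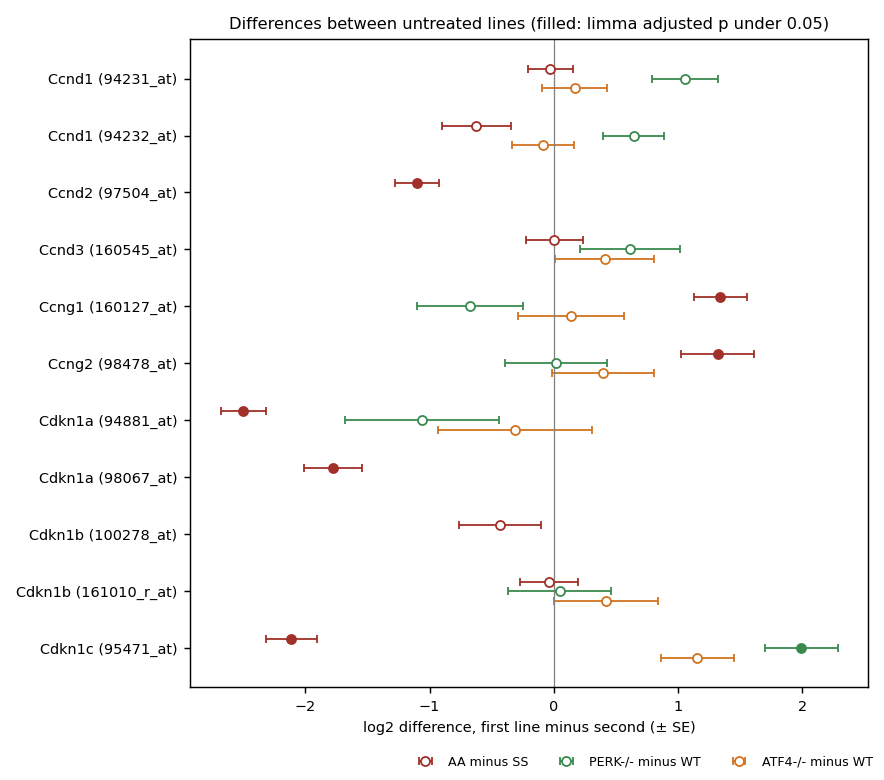
Log2 difference between untreated lines (± SE, limma) for each member probe set: AA minus SS in red, PERK-/- minus WT in green, ATF4-/- minus WT in orange; filled points have a limma adjusted p under 0.05. Cdkn1a and Cdkn1c lie at -1.78 or lower for AA minus SS, while Cdkn1c lies at 1.99 for PERK-/- minus WT; probe sets with values at the table's minimum have no green or orange point.

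The tunicamycin arrays asked how the drug moved the genes with and without ATF4 or PERK. By limma 0 of 8 member probe sets were called in WT, ATF4-/- or PERK-/- cells, where 0.839%, 0.42% and 0.0% of the 7387 probe sets tested were called. At an unadjusted p under 0.05, 0, 1 and 2 of 8 were found, beside 10.7%, 8.68% and 7.13% of all probe sets. The 2 in PERK-/- cells were Ccnd1 94232_at and Ccng2. Ccnd1 94232_at was 1.18 and 1.27 untreated and 0.652 and 0.351 treated, without overlap, a change of -1.0 ± 0.25 (limma adjusted p = 0.442). Ccng2 was 0.341 and 0.992 untreated and 1.19 and 2.92 treated, also without overlap, a change of 1.32 ± 0.41 (limma adjusted p = 0.541). In WT cells Ccng2 was 0.639 and 0.557 untreated and 0.635 and 0.697 treated, which overlap. The 1 in ATF4-/- cells was Ccnd3, 0.741 and 0.492 untreated and 0.282 and 0.0566 treated, a change of -1.09 ± 0.40 (limma adjusted p = 0.441).

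The other tested members moved within -0.85 and 0.74 in WT cells. Ccnd1 94231_at was 0.416 and 0.682 untreated and 0.812 and 0.659 treated, which overlap. Ccng1 was 1.37 and 1.03 untreated and 0.833 and 0.658 treated in WT, and 1.64 and 1.09 untreated and 0.713 and 0.634 treated in ATF4-/- cells. Treated arrays lay below untreated ones in both lines, with changes of -0.54 ± 0.43 and -0.79 ± 0.43 (limma adjusted p = 0.753 and 0.647). In PERK-/- cells the Ccng1 arrays overlapped. Cdkn1a 94881_at had wide replicate spread: 1.51 and 1.13 untreated and 0.294 and 1.14 treated in WT, 1.53 and 0.636 against 0.485 and 0.701 in ATF4-/-, and 0.974 and 0.211 against 0.447 and 1.44 in PERK-/- cells. Treated and untreated arrays overlapped in every line.

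Cdkn1a 98067_at was at the minimum on 8 of the 12 tunicamycin arrays and its highest value there was 0.872, so its agreement with 94881_at could not be judged there. Cdkn1b 100278_at ranged from the minimum to 2.83. Ccnd2 was at the minimum on 1 treated ATF4-/- array and otherwise 0.0459 to 1.63. No difference between the responses of a knockout and WT was called by limma: 0 of 8 members and 0.0% of all probe sets, for ATF4-/- and for PERK-/-. At an unadjusted p under 0.05, 0 and 1 of 8 were found, beside 4.91% and 7.61% of all.

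**Figure D4:**
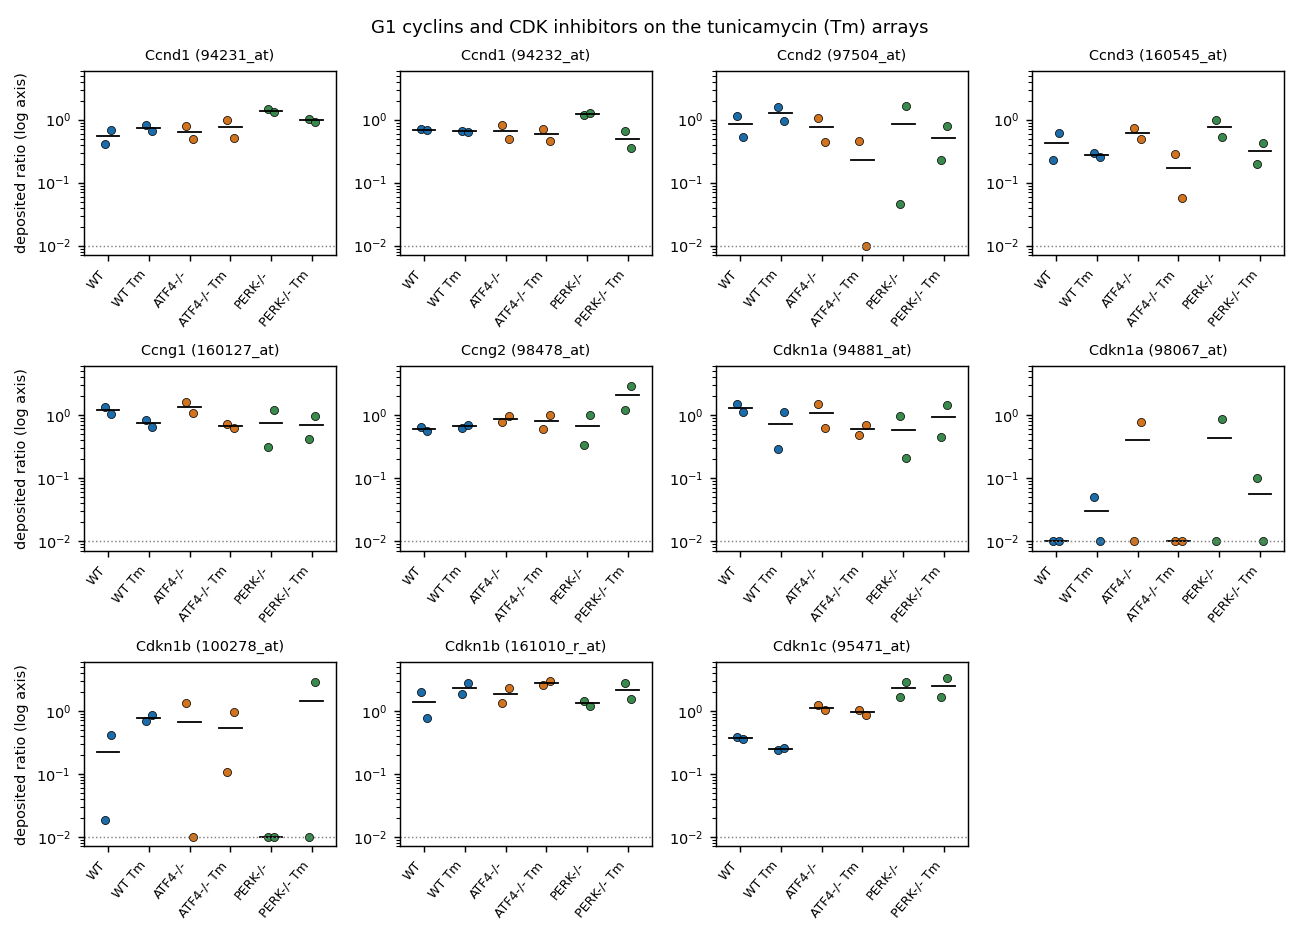
Deposited ratios (log axis) of the 11 member probe sets on the 12 tunicamycin arrays; points are arrays, horizontal bars are means of 2 arrays, Tm is tunicamycin and the dotted line is the table's minimum of 0.01. Cdkn1c is lowest in WT and highest in PERK-/- cells with or without the drug, and Ccnd2, Cdkn1a 98067_at and Cdkn1b 100278_at each have points on the dotted line.

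Between untreated lines, p57 was the 1 member called. Cdkn1c was 0.381 and 0.355 in WT, 1.22 and 1.03 in ATF4-/-, and 1.68 and 2.84 in PERK-/- cells, in that order without overlap. The PERK-/- minus WT difference was 1.99 ± 0.29 (6.15-fold ratio of means, limma adjusted p = 0.0151), making 1 of 8 called where 1.64% of all probe sets were. It was lost without WT untreated replicate 1 (2.02, limma adjusted p = 0.0743) or replicate 2 (1.96, 0.0718), or without PERK-/- untreated replicate 2 (1.65, 0.0841). The ATF4-/- minus WT difference was 1.15 ± 0.29 and not called (limma adjusted p = 0.314). There 0 of 8 members were called by limma, beside 0.0948% of all probe sets, and 1 of 8 had an unadjusted p under 0.05, beside 7.07% of all. With tunicamycin the order of the lines was kept: 0.238 and 0.257 in WT, 1.03 and 0.869 in ATF4-/-, and 1.67 and 3.28 in PERK-/- cells.

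Ccnd1 94231_at was 1.47 and 1.3 in untreated PERK-/- cells, above both WT arrays, a difference of 1.05 ± 0.26 that was not called (limma adjusted p = 0.0925) except with all 24 arrays in 1 fit (limma adjusted p = 0.0143). Ccnd1 94232_at differed by 0.64 ± 0.25 (limma adjusted p = 0.245). Fibroblast markers moved with the same line difference. In untreated PERK-/- cells 6 of 11 tested were called lower than in WT, where 1.64% of all probe sets were called in either direction. Processing alternatives gave 0 to 6 called. The summed ratio of the markers was 13.5 to 14.0 against 26.0 to 31.4. Without either WT untreated array 3 were called, and 2 without PERK-/- untreated replicate 1. The part of cell identity in the Cdkn1c difference was not tested.

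Genes around the members were read from lists chosen with earlier results of these data known. In SS 2.99% of all probe sets were called higher and 1.77% lower at 4 h, and 4.93% and 2.63% at 8 h. These shares stand beside every SS list count below. In SS at 4 h, 6 of 15 tested antiproliferative and growth arrest genes rose and 0 fell, with a list median of 0.26 against -0.03 over all probe sets. They included Gadd45b (1.32 to 5.56 in mean ratio, change 1.89 ± 0.15, limma adjusted p = 0.000758), Klf4 (1.46 ± 0.13) and the stress protein gene Nupr1 (1.79 ± 0.22). At 8 h 5 rose and 2 fell, with Ndrg1 among the risen (1.66 ± 0.21). Of p53 targets, 4 of 15 rose at 4 h and 3 at 8 h, and 0 fell. Gadd45a, which halts the cycle after stress, went from 2.3 to 18.0 in mean ratio at 4 h (change 2.84 ± 0.17, limma adjusted p = 0.000478). Mdm2, the p53 ubiquitin ligase, rose by 1.12 ± 0.20 (limma adjusted p = 0.0217).

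Immediate early genes, which mitogens induce, rose beside them. In SS at 4 h 5 of 16 rose and 0 fell, and at 8 h 4 rose and 0 fell. Fos went from 1.04 to 20.4 in mean ratio at 4 h (change 4.00 ± 0.18, limma adjusted p = 0.000112) and to 8.42 at 8 h, and Egr1 rose by 2.53 ± 0.19 at 4 h. Of FoxO targets 1 of 9 rose at 4 h (Klf2, 0.996 ± 0.18, limma adjusted p = 0.0231) and 0 at 8 h. Fibroblast markers fell in the same arrays: 5 of 13 at 4 h and 7 of 13 at 8 h, with a summed ratio of 15.0 to 15.2 untreated, 7.45 to 7.87 at 4 h and 5.15 to 5.3 at 8 h in SS. Without SS 4 h replicate 1 the 4 h count was 0, without either SS untreated array or SS 4 h replicate 2 it was 3, and without SS 8 h replicate 2 the 8 h count was 4. Their part in the member results was not tested.

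The next lists hold the machinery downstream of the D cyclins. In SS at 4 h 2 of 20 genes of the CDK, Rb and E2F core rose and 1 fell. Cdkn2c, the CDK4 and CDK6 inhibitor p18, fell by 0.82 ± 0.15 on the log2 scale (limma adjusted p = 0.02), and Cdkn2d, the related inhibitor p19, rose by 0.97 ± 0.22 (limma adjusted p = 0.0456). At 8 h Rb1, the retinoblastoma gene, rose by 1.70 ± 0.31 (limma adjusted p = 0.0159). Of G1/S and replication genes, 1 of 22 rose and 1 fell at 4 h, where Tk1 fell by 0.85 ± 0.19 on the log2 scale (limma adjusted p = 0.0464), and 1 rose at 8 h. Of G2/M genes, 1 of 18 rose at 4 h and 0 at 8 h. Counts of 0 or 1 among 22 or 18 genes lie near the shares over all probe sets (2.99% higher and 1.77% lower at 4 h, 4.93% and 2.63% at 8 h). In AA 0 genes of these 7 lists were called at either time, where 0.0% of all probe sets were called, so this says nothing particular to the lists.

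**Figure D5:**
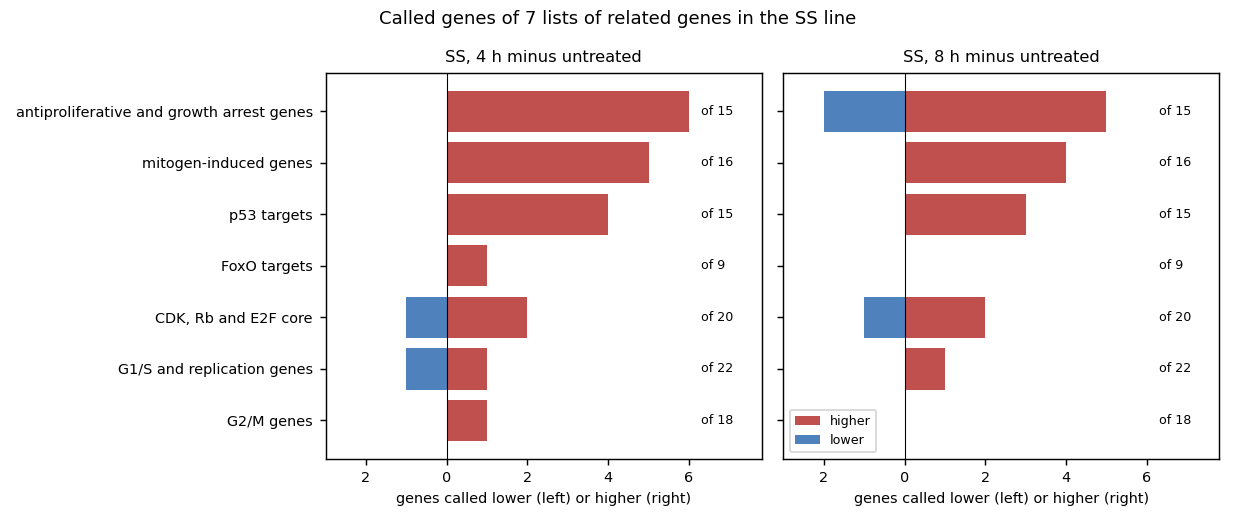
Number of genes called higher (red, right) or lower (blue, left) by limma after 4 h and 8 h of AP20187 in the SS line, for 7 lists of related genes; the number tested is printed beside each bar. Growth arrest, mitogen-induced and p53 target genes have 3 to 6 called higher, while G1/S and G2/M genes have 0 or 1. Over all probe sets 2.99% were called higher at 4 h and 4.93% at 8 h.

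In the fit of only the groups compared, 0 genes of these lists were called in SS. Leaving out 1 array also moved the counts. At 4 h the growth arrest genes called were 2 and 3 without SS 4 h replicate 1 and 2. The mitogen-induced genes called were 3 without either SS untreated array and 3 and 2 without SS 4 h replicate 1 and 2. The p53 targets called were 1 and 2 without SS untreated replicate 1 and 2, and 2 without either SS 4 h array. At 8 h the growth arrest genes called were 3 or 4 without 1 of the SS untreated or SS 8 h arrays, and the p53 targets 1 without SS 8 h replicate 2. The mitogen-induced genes called at 8 h were 2 when any of 9 arrays was left out (SS untreated replicate 1 and the SS 4 h, SS 8 h, AA untreated and AA 4 h arrays). The core and G2/M counts at 4 h fell to 0 without either SS 4 h array, and the G1/S count was 0 whichever array was left out. Tk1 lost its call without any 1 array, and Cdkn2d without any 1 of 10 arrays. Gadd45a, Fos, Egr1, Gadd45b and Klf4 were called at 4 h without any 1 array.

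The same lists were read in untreated AA against untreated SS cells, where 6.82% of all probe sets were lower in AA and 5.73% higher. Of 16 mitogen-induced genes 9 were lower in AA and 0 higher, with a list median of -0.91 against 0.08 over all probe sets. Dusp6, a phosphatase of the ERK pathway, was 4.98 in SS and 0.297 in AA on average (difference -3.26 ± 0.28, limma adjusted p = 0.000319), and Myc differed by -1.51 ± 0.16 (limma adjusted p = 0.000768). Of p53 targets 3 were higher in AA, with Perp at 2.53 ± 0.36 and Sesn1 at 0.76 ± 0.14, and 2 were lower. Gadd45a was among the lower ones (-0.91 ± 0.17, limma adjusted p = 0.0105). Of the CDK, Rb and E2F core 2 of 20 were higher in AA and 1 lower. Cdkn2d was higher in AA (1.44 ± 0.22, limma adjusted p = 0.0046) and Cdkn2c lower (-0.715 ± 0.145, limma adjusted p = 0.0162). Of the growth arrest genes 0 of 15 were higher and 3 lower, and of FoxO targets 1 of 9 was higher. Processing alternatives gave 0 to 4 core calls and 1 to 4 growth arrest calls. Of the G2/M genes 3 of 18 were higher in AA and 1 lower, and of G1/S genes 2 of 22 were lower. Without SS untreated replicate 1 or 2, or AA untreated replicate 1 or 2, the G1/S calls were 0, 1, 1 and 0, and the G2/M calls 1, 2, 0 and 0 in place of 4. The G2/M calls were also 1 or 2 without any 1 of the SS 4 h, SS 8 h or AA 4 h arrays. The p53 calls were 3 without SS untreated replicate 2 or AA untreated replicate 1, and 1 without AA untreated replicate 2, in place of 5. The mitogen-induced calls were 7 to 9 without single arrays.

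The genes of most similar pattern were sought by Pearson r of log2 values over the 12 Fv2E-PERK arrays, which share lines and treatments. For Ccng2 they were Cdc25c (r = 0.938), Inpp5b (0.937) and Clk3 (0.933). For Ccnd2 they were Cdr2l (0.977), Hspa4 (0.976) and Rabggta (0.974). For Cdkn1a 94881_at they were Mbd1 (0.993), Rbm38 (0.993) and Wnt11 (0.985), and Wnt11 was also first for Cdkn1a 98067_at (0.989). For Ccnd1 94231_at they were Nkain1 (0.957), Atp5k (0.945) and Glrx (0.944), and for Ccng1 Slc6a8 came first (0.978). Cdkn1c was most like Tmem37 (0.991) there and most like Pafah1b3 (0.959) over the 12 tunicamycin arrays.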

How the data were processed

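Total RNA of 24 arrays in 12 groups of 2 was analysed from the table the authors deposited, whose values behave as a linear ratio to each probe set's median (within 0.01 of 1 for 91.5% of probe sets, read from the values). How the array images were read and scaled is not given in the sources used here. Scale and centring of each array are unknown, and depth does not apply: the number of arrays limits the precision. Of 12488 probe sets, 66 controls were left out. Groups came from titles and descriptions. Each set of 12 arrays was fitted alone with limma 3.58.1 (R 4.3.3, lmFit and eBayes with trend) on log2(ratio + 0.247), where 0.247, the pseudocount, is the table's median over 4, because the share of values at the minimum differed between the sets. That left 6 residual degrees of freedom, with 7387 and 12384 probe sets tested and Benjamini-Hochberg adjustment in each of 15 comparisons. Alternatives were a fit of all 24 arrays, only the groups compared, other filters, pseudocounts and normalizations, no trend, a replicate block, and leaving out each array. The fit was also run on simulated data with independent noise for each probe set and array. That setting holds no effect shared across an array or a line, so it cannot test the calls against such effects. The named genes were all member probe sets, and from each list up to 3 called genes of smallest p per comparison. The members and lists were chosen with earlier results of these data known. Promoter sequences are RefSeq's, on GRCm38.p6.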

Additional observations from a re-analysis of the deposited data

Results flagged for a closer look

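At 8 h of AP20187, the responses of the SS and AA lines differed by the test of the difference itself for 2 members. For Ccng2 the AA response minus the SS response was -2.04 on the log2 scale, with both SS 8 h arrays above both untreated ones and the AA arrays overlapping. For Ccnd2 it was -1.38, with both SS 8 h arrays above all other SS arrays. Both calls were lost without most single arrays, as given in the report.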

How the results depend on the processing

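The direction of every called member change was kept under all alternatives run. Of 3144 member values under alternatives, 92 lost a call, 8 gained one, and 3017 kept their side of the threshold with the same sign or a sign change within 1 SE. The other 27 changed sign by more than 1 SE. In all 108 changed sign, 0 of them called in either setting. The AP20187 calls in SS were 0 with only the groups compared in place of 7, and 2 to 9 without single arrays. The AA against SS calls were 5 of the main 8 with all 24 arrays in 1 fit, 2 with only the groups compared, and 5 to 7 without single arrays. The fit of all 24 arrays held 24 of these member tests in place of 33. Every main call missing from that fit belonged to a probe set that was not tested in it, so none of them failed there. The untreated knockout calls were 2 with all 24 arrays in 1 fit, 0 with only the groups compared, 0 with no filter, and 0 to 1 without single arrays, in place of 1. Calls for tunicamycin responses, their differences and AP20187 in AA were 0 under every alternative. Deviations of replicates with the same number correlated weakly (r from -0.0756 to 0.128 over 15 Fv2E-PERK pairs and -0.194 to 0.207 over 15 tunicamycin pairs). On the Fv2E-PERK arrays r was 0.0359 to 0.128 between groups of the same line and -0.0756 to 0.017 between SS and AA groups. Between untreated and tunicamycin-treated cells r was 0.207 in PERK-/-, 0.0106 in ATF4-/- and -0.00098 in WT. A pairing or batch within a line was not tested. With a replicate block the calls were 6 (3 higher, 3 lower) for AP20187 in SS, 6 for AA against SS and 1 for the untreated knockouts. For Ccnd1, Cdkn1a and Cdkn1b both probe sets are given for AP20187 in SS, and not for every other comparison. The number of arrays, 2 a group, limits all of these.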
